A study of Drosophila melanogaster with 6 samples.

Results

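The 18S Psi snoRNAs of the fly are H/ACA box small nucleolar RNAs named for the uridine of 18S rRNA that each is annotated to guide to pseudouridine. They were selected as every listed transcript whose gene name in the BDGP6 annotation begins with snoRNA:Psi18S. This gave 46 listed transcripts, beside 485 others in the table, and 46 of its 251 snoRNAs. The number in each name is the annotated 18S rRNA position, and a final letter distinguishes copies that share a position. The names cover 18 positions.

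An H/ACA snoRNA folds into hairpins whose internal loops pair with rRNA on both sides of a target uridine. The bound pseudouridine synthase, dyskerin (Nop60B in flies), then rotates the base of that uridine to give pseudouridine. Most snoRNAs of animals are cut out of introns of genes transcribed by RNA polymerase II, so the intron's host gene and the processing of the intron both bear on their level, while tRNAs and 5S rRNA are made by RNA polymerase III (Pol III). The study counts several snoRNAs among fly Pol III targets, and which of the 18S guides, if any, are among them was not determined here.

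The study sequenced short RNAs from midguts of female Drosophila melanogaster at 1 week of age, to ask which short noncoding RNAs change when Pol III activity is partly lost. The Polr3D mutant group held 3 libraries from flies heterozygous for a P-element insertion in Polr3D (genotype dC53EY22749), which encodes a subunit specific to Pol III and was formerly called dC53. The wild-type group held 3 libraries from White Dahomey flies, the background into which the insertion had been backcrossed. The insertion is present in all cells and not only in the gut, and a single insertion allele was examined. RNA below 200 nucleotides was enriched and demethylated before sequencing. The labels number the libraries but do not say whether they came from separate groups of flies, so p-values measure the spread between these libraries, which may be partly technical.

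Total counts per library ranged from 13465392 to 16891428, and no pair of libraries within a genotype was a repeat of the other. The table holds transcripts shorter than 300 bases, so Polr3D mRNA could not be used to check the genotype labels, and 0 of 6 midgut marker mRNAs were listed to check the tissue. snoRNAs together took 2.09% ± 0.121 of counts in Polr3D mutants, against 2.52% ± 0.107 in wild type (SD, n = 3 each), and the genotypes did not overlap. In these bulk libraries, fewer cells of a type and less RNA per cell cannot be told apart. A share is relative, so it is also lower where other RNAs take more of the counts, which was not tested. The paper reports that most of the tRNAs that changed in this mutant were induced.

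The 46 snoRNAs are 124 to 159 bases long, and 44 of them lie in introns of 14 protein-coding genes, where they occupy 18 introns in all. They are on chromosome arms 2L (18 snoRNAs), 2R (11), 3R (8) and 3L (5) and on the X chromosome (4). Arpc2, a subunit of the actin-nucleating Arp2/3 complex, hosts 17. The chromatin-remodelling ATPase gene dom hosts 6, the cytoplasmic poly(A)-binding protein gene pAbp hosts 3, and the splicing factor gene Sf3b3 hosts 2. Genes for ribosomal proteins (RpS7, RpS5a, RpL10Ab, RpL22, RpS20 and RpS29) make up 6 of the hosts and hold 12 of the snoRNAs. Psi18S-1820 lies in an intron of Nop60B, so the gene for the pseudouridine synthase itself carries an 18S guide. Single guides lie in introns of Msp300, which encodes a nesprin, of Tudor-SN, which encodes a nuclease with a Tudor domain, and of CG10576.

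The remaining 2 snoRNAs lie outside annotated genes. Psi18S-176 (BDGP6, chromosome arm 2R, 23839911 to 23840064, minus strand) lies 47 bases from the glycine transporter gene GlyT, which is on the opposite strand. Psi18S-301 (3R, 20574906 to 20575043, plus strand) is 202 bases from TFAM, the gene of a mitochondrial transcription factor, again on the opposite strand.

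Of the 18 positions, 11 had a single guide and 7 had several. The 7 positions with several guides together held 35 copies. Position 525 had 11 copies, 640 had 7, 1377 had 5, 841 had 4, 1347 and 1854 had 3 each, and 1389 had 2. Copies of a position mostly lie in a row within a host. The extreme case is Arpc2 on 2L, where 10 of the 11 copies for position 525 are interspersed with all 7 copies for position 640 over a pair of introns. The first of these introns (20417668 to 20420318, 2651 bases) holds 11 copies that fill 55.3% of it, with gaps of 11 to 41 bases between neighbours. The other (20421118 to 20422144, 1027 bases) holds 6 copies that fill 76.5% of it, with gaps of 16 to 36 bases. The eleventh copy for position 525, Psi18S-525k, lies apart in Msp300. All 5 copies for position 1377 lie in 1 intron of RpS7 (3R, 30206722 to 30208092, minus strand), all 3 for position 1854 in 1 intron of RpS5a (X, 17145133 to 17146797, minus strand), and all 3 for position 1347 in 1 intron of pAbp (2R, 18141673 to 18143412, plus strand).

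The abundance of these guides varied widely. Levels are given as CPM, the usual count relative to the library total (here TMM-scaled), divided by transcript length in kilobases where different snoRNAs are compared. Psi18S-1377a was the highest at 3304 ± 238 CPM per kilobase in Polr3D mutants and 3185 ± 142 in wild type (SD, n = 3 each, as below). Psi18S-110, from Sf3b3, followed at 3132 ± 276 in mutants and 3026 ± 422 in wild type. These neighbours in the order did not differ beyond their spread. Psi18S-531, from RpL22, was next at 2702 ± 438 in mutants and 2220 ± 306 in wild type, where an annotated long noncoding RNA (lncRNA:CR42491) overlaps the same intron. Psi18S-1377c (2039 ± 37.7 in mutants, 2165 ± 156 in wild type), Psi18S-1347b (1492 ± 105 in mutants, 1662 ± 29.1 in wild type) and Psi18S-1377d (1223 ± 149 in mutants, 1489.8 ± 35.2 in wild type) followed in the order. Together these 6 snoRNAs carried 57.9% of the CPM of the 46.

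**Figure D1:**
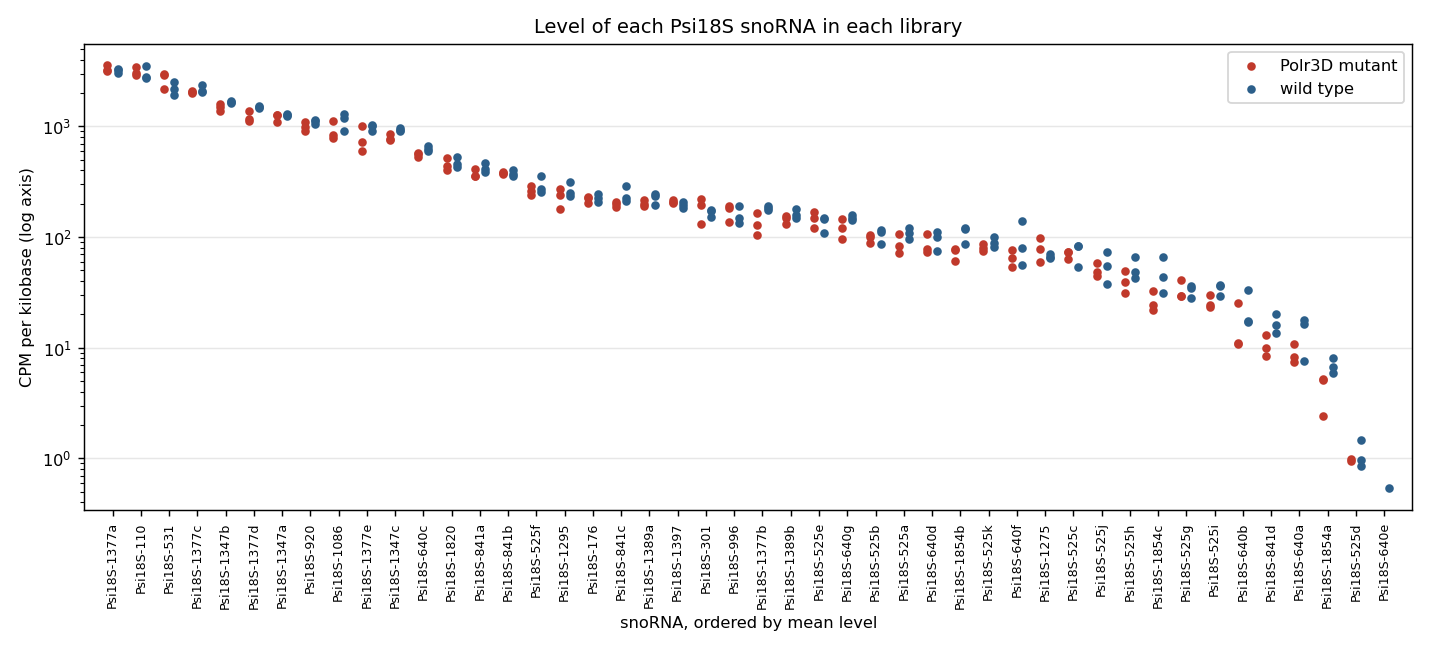
Level of each of the 46 Psi18S snoRNAs in each library, in CPM per kilobase on a log axis, ordered by mean level, with Polr3D mutant libraries in red and wild-type libraries in blue. The genotypes lie close together across a range that runs from Psi18S-1377a down to Psi18S-640e, and the 6 values with no count are not drawn.

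At the other end, Psi18S-1854a was the lowest that passed the filter on low counts, at 4.25 ± 1.59 CPM per kilobase in mutants and 6.86 ± 1.10 in wild type. Its raw counts were 10, 11 and 5 in mutants and 17, 14 and 14 in wild type. Psi18S-640a had 8.77 ± 1.73 CPM per kilobase in mutants and 13.9 ± 5.58 in wild type, and Psi18S-841d had 10.5 ± 2.45 in mutants and 16.6 ± 3.40 in wild type. Among the 44 that passed, the highest mean level was 584 times the lowest. Psi18S-525d and Psi18S-640e did not pass the filter. Psi18S-525d had 0, 2 and 2 counts in mutants and 2, 3 and 2 in wild type, and Psi18S-640e had 0, 0 and 0 counts in mutants and 0, 1 and 0 in wild type. Over the 46 listed snoRNAs, 9 had a mean level above 1000 CPM per kilobase and 18 were below 100.

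The median level of the 46 guides was 161 CPM per kilobase. The other H/ACA rRNA guides, the 60 listed Psi28S snoRNAs, had a median of 299. The box C/D guides, which direct methylation of rRNA riboses, were higher still in the middle of their distributions, at 820 CPM per kilobase for the 19 Me18S snoRNAs and 863 for the 49 Me28S snoRNAs. These medians are descriptions across genes, which are not independent replicates. They depend on the division by length, and neither lengths nor CPM without that division were compared between the classes.

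Estimated levels of copies for the same position were often far from equal, even within 1 intron. The quantification divides reads among similar copies, and the part this plays in these levels was not tested. In the Arpc2 array, Psi18S-640c stood alone at 555 ± 20.1 CPM per kilobase in mutants and 629.8 ± 29.0 in wild type, and Psi18S-525f was the highest of the position 525 copies at 264 ± 26.3 in mutants and 294 ± 55.8 in wild type. Their neighbours were lower, to differing degrees. Psi18S-525e, directly after Psi18S-640c, had 147 ± 23.8 in mutants and 135 ± 22.0 in wild type. Psi18S-640d, directly before Psi18S-525f, had 85.8 ± 17.5 in mutants and 95.1 ± 18.5 in wild type. Other copies nearby were lower still. Psi18S-640b, upstream of Psi18S-640c in the same intron, had 15.8 ± 8.40 in mutants and 22.5 ± 9.25 in wild type, and Psi18S-525g, directly after Psi18S-525f, had 33.3 ± 6.85 in mutants and 32.8 ± 3.99 in wild type. Both copies that failed the filter, Psi18S-525d and Psi18S-640e, also belong to this array. Psi18S-525d sits between Psi18S-640b and Psi18S-640c.

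**Figure D2:**
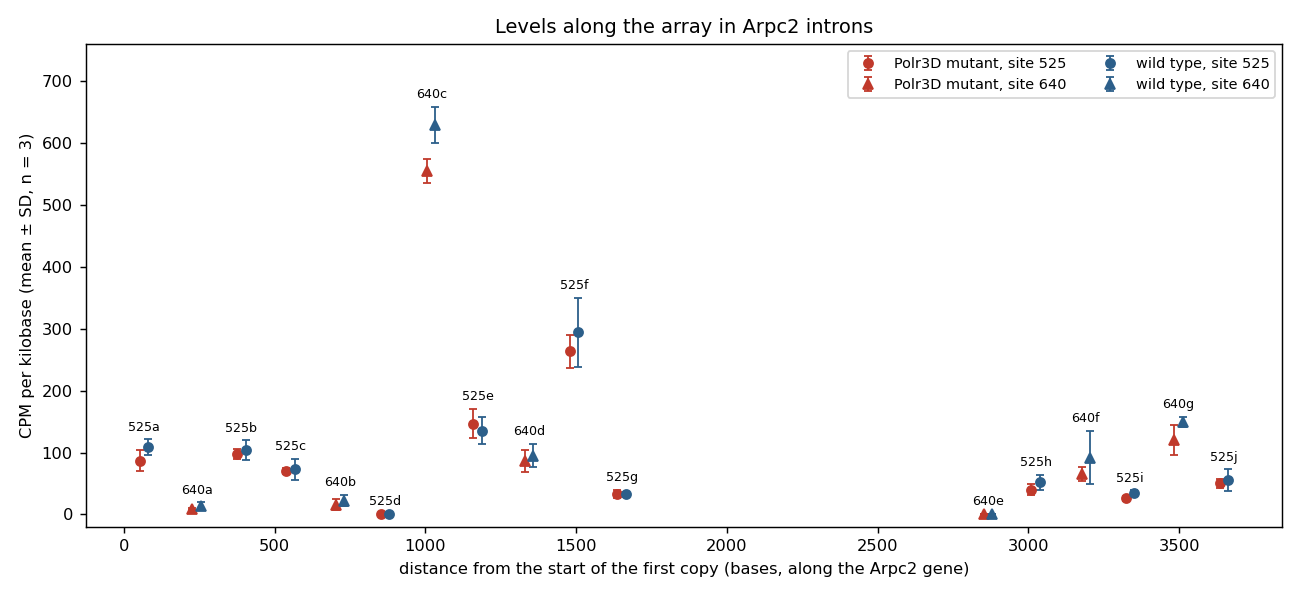
Mean level with SD (n = 3 per genotype, CPM per kilobase) of the 17 guides in Arpc2 introns, against distance along the gene from the start of the first copy. Circles are copies for position 525 and triangles copies for position 640, red for Polr3D mutant and blue for wild type, and Psi18S-640c and Psi18S-525f rise above their neighbours in both genotypes.

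The ratio of the highest to the lowest tested copy, on mean CPM per kilobase, was 52.2 at position 640, 29.5 at position 841, 20.6 at position 1377, 16.3 at position 1854 and 9.26 at position 525. At positions 1347 and 1389 it was only 1.83 and 1.39. Psi18S-640c took 65.1% ± 2.62 of the counts of its position in mutants and 62.8% ± 3.58 in wild type. At position 525, counts were divided more evenly, and Psi18S-525f took 29.5% ± 1.03 in mutants and 29.9% ± 2.39 in wild type. The copies for position 841 in dom included a strong pair, Psi18S-841a (376 ± 34.3 CPM per kilobase in mutants, 424 ± 40.4 in wild type) and Psi18S-841b (379 ± 8.24 in mutants, 379.9 ± 24.8 in wild type), although these lie in different introns.

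Summed over copies, position 1377 had the most guide RNA, at 1030.1 ± 88.2 CPM in mutants and 1102 ± 16.96 in wild type, or 31.6% of the CPM of all Psi18S guides. Position 1347 followed with 496 ± 32.2 CPM in mutants and 547 ± 11.3 in wild type. The number of copies and the amount of guide RNA did not run in parallel. The 11 copies for position 525 summed to 120.4 ± 8.17 CPM in mutants and 132 ± 16.7 in wild type, and the 7 for position 640 to 109 ± 7.99 CPM in mutants and 129 ± 13.1 in wild type. The single guide for position 110 alone had 435 ± 38.3 CPM in mutants and 421 ± 58.6 in wild type. The lowest sums were those of position 1854 (3 copies) and position 1275, whose single guide from RpS29 had 10.9 ± 2.61 CPM in mutants and 9.34 ± 0.441 in wild type.

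**Figure D3:**
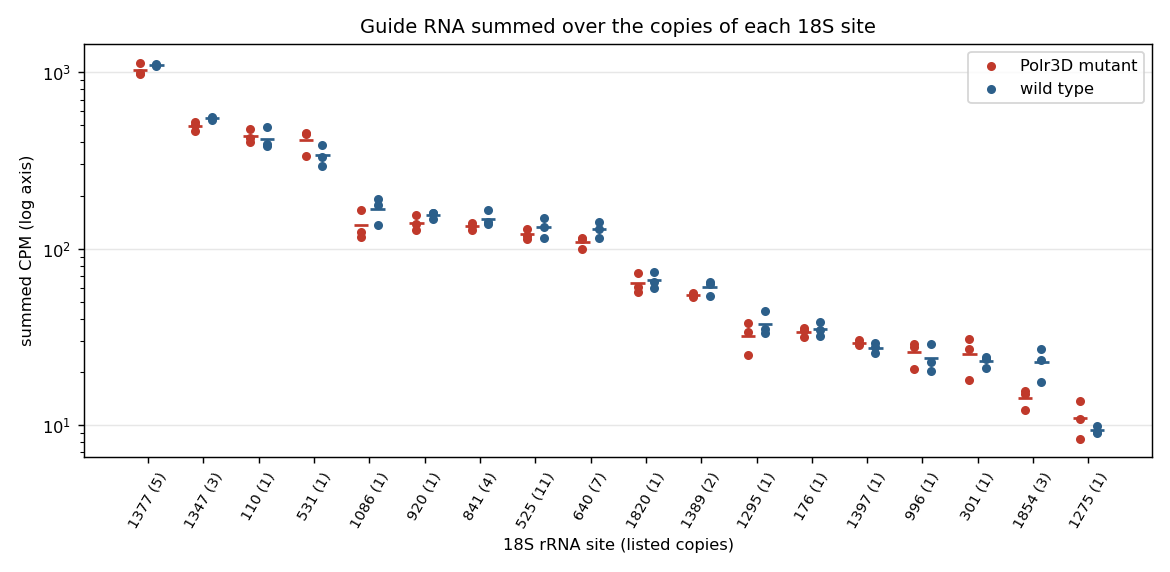
CPM summed over the listed copies of each 18S rRNA position, on a log axis, in each library, with the number of copies in brackets and short lines at the group means (Polr3D mutant red, wild type blue). Position 1854 is 1 of 3 positions at which all mutant values lie below all wild-type values, with 1347 and 640.

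The guides were then compared between genotypes. No Psi18S snoRNA of the 44 tested passed the threshold (edgeR quasi-likelihood test, Benjamini-Hochberg adjusted p below 0.10 over all 411 transcripts tested), where 1.22% of all transcripts tested did. At an unadjusted p below 0.05 there were 3, all lower in mutants, which is 6.82% of the 44 beside 14.8% of all transcripts tested in either direction and 5.35% in this direction. DESeq2, the test that the study used, also called 0 of the guides, with 3 at an unadjusted p below 0.05. Over all transcripts tested it called 7.3%, with 69 of the 411 below that p. Limma-voom called 0 of the guides, with 4 below 0.05, and it called 0 of all 411 transcripts, with 14.8% below 0.05. Standard errors of the log2 fold change ranged from 0.115 to 0.447. The 95% interval lay within 1 log2 unit of 0 on both sides for 37 of the 44, and within 0.5 for 14. For the rest the interval reached beyond those sizes.

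Psi18S-1854b (X, 17145557 to 17145695, minus strand) had the smallest p of the guides. Its level was 10.9, 8.39 and 10.7 CPM in mutants, against 12.2, 16.4 and 16.9 CPM in wild type. All mutant libraries lay below all wild-type libraries. The log2 fold change, mutant over wild type, was -0.60 (SE 0.20, unadjusted p = 0.016, adjusted p = 0.235 by edgeR). Its neighbour Psi18S-1854c had 3.39, 3.06 and 4.58 CPM in mutants and 4.34, 6.11 and 9.31 CPM in wild type, where wild-type replicate 1 overlapped the mutants. Its log2 fold change was -0.84 with an SE of 0.32 (adjusted p = 0.299 by edgeR). Psi18S-1854a had 0.722, 0.715 and 0.337 CPM in mutants and 1.12, 0.930 and 0.815 CPM in wild type, without overlap, but the counts behind it were few (log2 fold change -0.68, SE 0.45, edgeR adjusted p = 0.473).

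The third guide at an unadjusted p below 0.05 was Psi18S-1377b (3R, 30207493 to 30207630, minus strand), the weakest copy in the RpS7 intron. It had 14.4, 17.7 and 22.6 CPM in mutants, against 24.2, 25.1 and 26.4 CPM in wild type. The mutant values were spread more widely than the wild-type ones and lay below all of them (log2 fold change -0.47, SE 0.19, edgeR adjusted p = 0.310). In 1 alternative it passed the threshold, when mutant replicate 3 was left out, together with Psi18S-1377e (adjusted p = 0.0668 for each). Over the 15 alternatives its adjusted p ranged from 0.0668 to 0.551, and that of Psi18S-1377e from 0.0668 to 0.671.

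The other large negative values also belonged to weakly expressed copies. Psi18S-640a had 1.08, 0.975 and 1.41 CPM in mutants and 2.37, 0.9968 and 2.15 CPM in wild type, so the genotypes overlapped through wild-type replicate 2 (log2 fold change -0.67, SE 0.40). Psi18S-841d had 1.16, 1.37 and 1.82 CPM in mutants and 2.23, 1.86 and 2.79 CPM in wild type, without overlap (log2 fold change -0.67, SE 0.32). Neither passed the threshold (edgeR adjusted p = 0.438 and 0.360 in that order).

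Among positive values, Psi18S-531 from RpL22 had the largest. It was at 454, 444 and 334 CPM in mutants and at 294, 332 and 386 CPM in wild type. Mutant replicates 1 and 2 were above all wild-type libraries and mutant replicate 3 fell among them (log2 fold change 0.28, SE 0.16, 95% interval -0.09 to 0.65, edgeR adjusted p = 0.425). Psi18S-1275 had 8.38, 10.9 and 13.6 CPM in mutants and 9.003, 9.17 and 9.84 CPM in wild type (log2 fold change 0.23, SE 0.21). Mutant replicate 1 was the lowest of the 6 libraries here, and replicate 3 the highest. For Psi18S-301, which lies outside any gene, the mutants at 27.1, 18.1 and 30.7 CPM enclosed the wild-type values of 21.1, 24.3 and 23.6 CPM (log2 fold change 0.14, SE 0.21). Psi18S-525e had a log2 fold change of 0.12 (SE 0.20). For the 2 most abundant guides the fold changes were near 0. Psi18S-1377a had 436, 445 and 497 CPM in mutants and 420.2, 451 and 457 CPM in wild type (log2 fold change 0.05, SE 0.12), and Psi18S-110 had 425, 478 and 403 CPM in mutants and 383, 391 and 488 CPM in wild type (log2 fold change 0.05, SE 0.14).

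**Figure D4:**
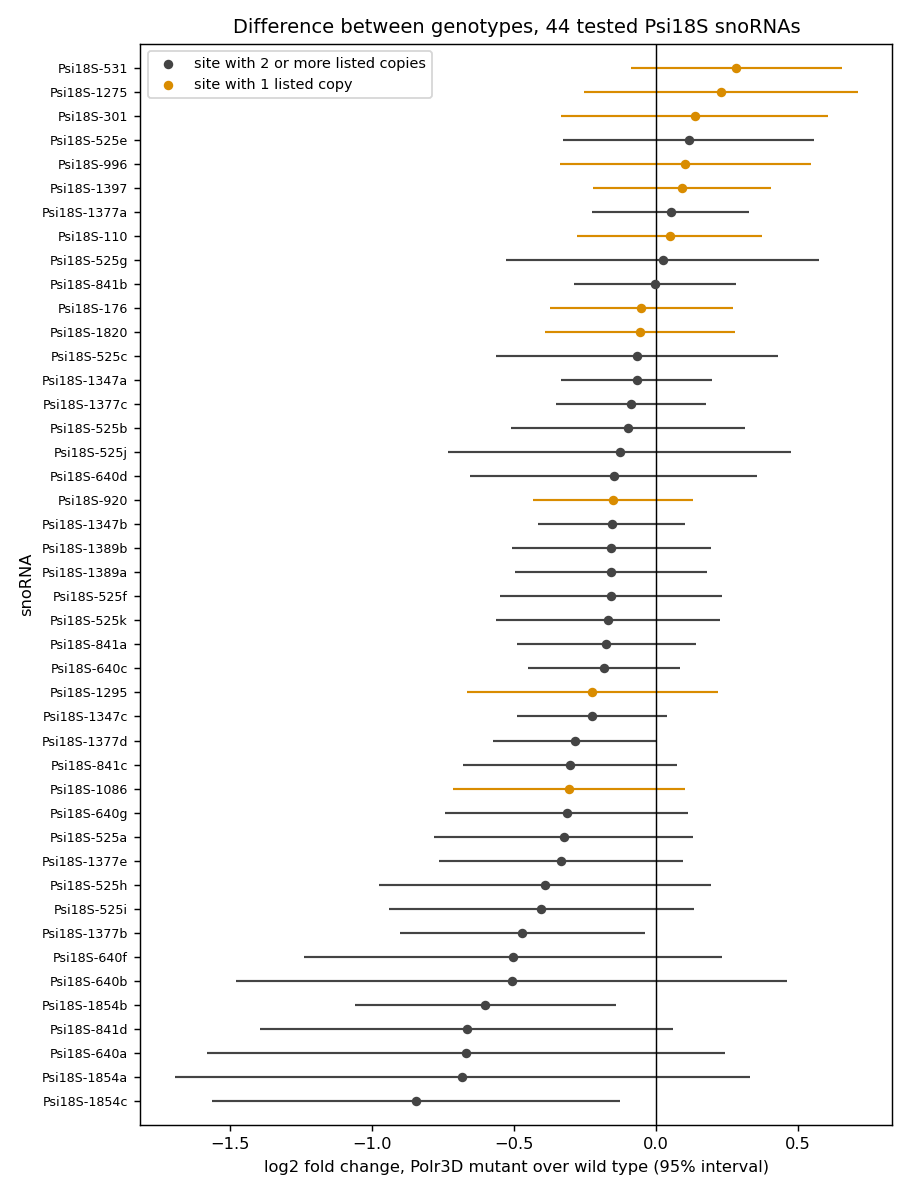
Log2 fold change of the 44 tested Psi18S snoRNAs, Polr3D mutant over wild type, with 95% intervals from the edgeR fit, in yellow for positions with a single guide and in black for positions with several copies. Values run from -0.84 (Psi18S-1854c) to 0.28 (Psi18S-531), and the interval excludes 0 for Psi18S-1854b, Psi18S-1854c and Psi18S-1377b.

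The fold changes leaned to the negative side as a set. Of the 44 tested guides, 35 had a log2 fold change below 0 and 9 above (79.5% negative), with a median of -0.16, beside 55.5% negative and a median of -0.05 over all 411 transcripts tested. Neighbouring classes of guides leaned the same way, with medians of -0.13 for 58 tested Psi28S snoRNAs (77.6% negative), -0.13 for 19 Me18S snoRNAs (63.2% negative) and -0.18 for 49 Me28S snoRNAs (89.8% negative). In none of these classes did edgeR call a snoRNA, with 3, 3 and 6 at an unadjusted p below 0.05, all lower in mutants. DESeq2 called 0, 1 and 1 in the same order, and limma-voom called none. The lean of the Psi18S guides relative to 0 changed with the scaling. The split was 42 negative to 2 positive with total counts alone, 29 to 15 with TMM factors taken without nuclear tRNAs, 5S and 5.8S rRNAs, 28 to 16 with TMM factors from the snoRNAs only, and 43 to 1 with TMM factors from mitochondrial tRNAs. A change of scaling shifts the log2 fold changes of all transcripts by nearly the same amount. The guides' median minus that of all transcripts tested could therefore hardly change, and it is no check on the lean. It was -0.105 as reported and -0.114, -0.108, -0.106 and -0.114 in the same order.

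All mutant CPM lay below all wild-type CPM for 9 of the 44 guides (20.5%), against 10.7% of all transcripts tested, and above them for 0, against 8.03%. The neighbouring classes showed this too. All mutant CPM were lower for 13 of 58 Psi28S, 3 of 19 Me18S and 12 of 49 Me28S snoRNAs, and higher for 0 in each. Of all 243 tested snoRNAs, 41 were lower and 2 higher. The 9 Psi18S guides were Psi18S-1347b, 1347c, 1377b, 1377d, 640c, 841c, 841d, 1854a and 1854b. Scaled to total counts the number was 22, with 28.2% of all transcripts tested, and 0 guides were above (3.65% of all). Scaled to snoRNA counts it was 4, with 4.14% of all transcripts tested. Those 4 were Psi18S-1377b, Psi18S-1377d, Psi18S-1854a and Psi18S-1854b, which were below wild type under each of these 3 scalings. On snoRNA counts, Psi18S-1377a and Psi18S-1397 lay above all wild-type values (13.9% of all transcripts tested did), and Psi18S-1397 is named here after its values were seen.

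Summed over the 46, Psi18S guides took 0.317%, 0.303% and 0.314% of all counts in mutants and 0.379%, 0.346% and 0.371% in wild type, and the genotypes did not overlap. The ratio of the means was 0.852. Of snoRNA counts they took 14.5%, 15.5% and 14.7% in mutants and 14.4%, 14.2% and 14.9% in wild type. These overlapped, with a ratio of 1.03, and the ratio for the snoRNA share of all counts was 0.830.

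Within the Psi18S guides, most of the negative values came from positions with several copies. Of 33 tested copies at these positions, 30 had a negative log2 fold change (median -0.18), and all 9 guides without overlap were among them. The 11 single guides split into 5 negative and 6 positive, with a median of 0.05 and no guide without overlap. The difference between these kinds of position was not tested, and copies of a position mostly share an intron and may share reads. The 12 guides from ribosomal protein genes had a median of -0.25 with 9 negative, and the 30 tested guides from other hosts a median of -0.16 with 25 negative.

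Because the quantification divides reads among similar copies, the counts of each position were also summed before testing, which gave 336 features. None of the 18 positions passed the threshold (edgeR, 1.79% of the features tested did), and 1 had an unadjusted p below 0.05, where 15.5% of features did. With limma-voom the numbers were also 0 and 1, where it called 0 of the 336 features, and DESeq2 called 1 position, with 8.33% of the features called. Of the sums, 12 had a negative log2 fold change, including all 7 positions with several copies, and 6 a positive one (52.7% of features were negative). All mutant sums lay below all wild-type sums at positions 1347, 640 and 1854 (7.44% of features did).

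Position 1854 showed the largest difference. The sum of its 3 copies in RpS5a was 15.02, 12.2 and 15.6 CPM in mutants, against 17.6, 23.5 and 27.0 CPM in wild type. The lowest wild-type library was replicate 1, which was still above the highest mutant. The log2 fold change was -0.70 (SE 0.21, 95% interval -1.18 to -0.22, unadjusted p = 0.0087, edgeR adjusted p = 0.163). DESeq2 called this position (log2 fold change -0.68, adjusted p = 0.0201), as did edgeR with total counts only (-0.83, adjusted p = 0.0801) and edgeR without mutant replicate 3 (-0.75, adjusted p = 0.0921). Those settings called 13 and 42 of all features, against 6 in the fit reported here. Across all 15 alternatives the log2 fold change ran from -0.93 to -0.58 and the adjusted p from 0.0201 to 0.383. RpS5a encodes a protein of the small ribosomal subunit, and 11 further snoRNAs are listed from its introns, all of them guides for 28S rRNA. Of the 10 of these that were tested, 9 had a negative log2 fold change (median -0.21), 4 had all mutant values below wild type and 0 passed the threshold in edgeR. Over all transcripts tested, 55.5% were negative and 10.7% had all mutant values below wild type. Of the 243 tested snoRNAs, 76.5% were negative and 41 had all mutant values below wild type. Further snoRNAs from other hosts leaned the same way. The negative ones were 6 of 6 for Nop60B (median -0.45), 7 of 7 for Sf3b3 (-0.24), 4 of 4 for CG10576 (-0.22) and 7 of 9 for dom (-0.11). For RpL22 and RpS20 it was 1 of 1 each, and for RpS7 1 of 2 (median 0.07).

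At position 640, the sum was 100.1, 113 and 114 CPM in mutants and 142, 115.4 and 129.7 CPM in wild type (log2 fold change -0.27, SE 0.13, edgeR adjusted p = 0.370). Its strongest copy, Psi18S-640c, showed the same order at 68.2, 71.7 and 73.2 CPM in mutants and 84.4, 76.9 and 80.5 CPM in wild type. At position 1347, served by the pAbp intron, the sum was 526, 500.1 and 462 CPM in mutants and 555, 534 and 553 CPM in wild type (log2 fold change -0.18, SE 0.13, edgeR adjusted p = 0.514). At position 1377, the most abundant, the genotypes overlapped, at 971, 987 and 1132 CPM in mutants and 1087, 1098 and 1121 CPM in wild type (log2 fold change -0.13, SE 0.14, edgeR adjusted p = 0.640).

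The division of counts among the copies of a position does not depend on how libraries are scaled. Psi18S-1377a took 44.9%, 45.1% and 43.9% of the counts of position 1377 in mutants, against 38.6%, 41.1% and 40.8% in wild type. This was 4.45 percentage points higher in mutants, without overlap. The other copies in the RpS7 intron took the balance. Psi18S-1377d took 16.3%, 15.3% and 16.7% in mutants and 18.2%, 18.4% and 18.5% in wild type, and Psi18S-1377b took 1.48%, 1.79% and 1.999% in mutants and 2.23%, 2.28% and 2.36% in wild type. Both were lower in all mutants. Psi18S-1377c and Psi18S-1377e overlapped between genotypes, with Psi18S-1377e at 8.39%, 10.1% and 12.3% in mutants and 11.4%, 12.7% and 12.6% in wild type.

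**Figure D5:**
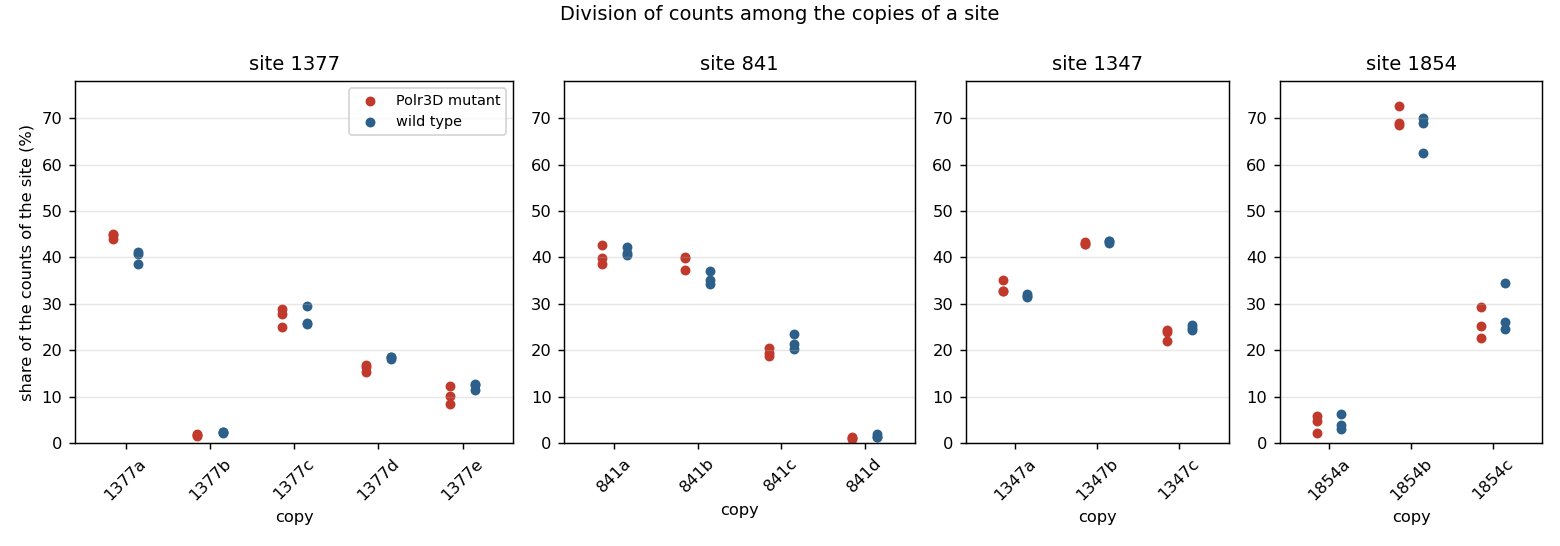
Share of the counts of 4 positions taken by each copy, in percent, in each library (Polr3D mutant red, wild type blue). The share of Psi18S-1377a lies between 43.9% and 45.1% in mutants, above the 38.6% to 41.1% of wild type, while Psi18S-1854b overlaps between genotypes.

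Of the 33 tested copies, 7 had shares without overlap between genotypes (21.2%), 3 higher and 4 lower in mutants, where 10.4% of 77 copies of the other rRNA guides did. The exact two-sided permutation p was 0.1 for each of the 7, the smallest that 3 libraries against 3 can give, so shares of single copies cannot pass 0.05 in this design. Besides position 1377, they were Psi18S-841b (3.57 points higher in mutants), Psi18S-1347a (1.71 points higher), Psi18S-525i (a difference of -0.61 points, mutant minus wild type) and Psi18S-841d (-0.49 points). For Psi18S-841b the separation was narrow, since its lowest mutant value was 37.21% and its highest wild-type value 37.15%. Shares of a position add up to 100%, so a higher share of 1 copy comes with lower shares of others. At position 1854 the shares did not separate. Psi18S-1854b took 72.6%, 69.0% and 68.5% in mutants and 69.0%, 70.0% and 62.5% in wild type, and all 3 copies had negative log2 fold changes. How similar the copies are in sequence, and the part that read division plays in their shares, was not tested.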

How the data were processed

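RNA was extracted with Trizol from midguts, selected below 200 nucleotides and demethylated. According to the labels and methods, the authors trimmed reads with Cutadapt (version 2.10), quantified them with Salmon (version 0.13.2) against BDGP6 transcripts (release 32), limited to those under 300 bases. What the authors deposited is a table of estimated counts for each transcript, as whole numbers and without scaling between libraries. Reads that fit similar copies are divided among them by Salmon. Size selection and demethylation act on recovery by length and modification, so levels of different RNAs are comparable only within these limits.

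Of 531 transcripts, 527 had their identifier in BDGP6 release 54, which uses the same assembly. Groups came from the sample titles. Total counts were 13465392 to 16891428, of which the Psi18S guides took 0.303% to 0.379%. Counting error is therefore small only for the abundant guides. Psi18S-525i, for example, had 46 to 85 counts per library and Psi18S-1854c had 47 to 160. PCR copies are not independent molecules. edgeR (version 4.0.16, R 4.3.3) tested 411 transcripts that passed filterByExpr (minimum count 10, minimum total 15) with TMM scaling, glmQLFit and glmQLFTest on genotype alone, with Benjamini-Hochberg adjustment over all of them and the study's threshold of 0.10. Standard errors came from the F statistic. Tests were two-sided and checked on simulated data. The study used its threshold of 0.10 with DESeq2, which was an alternative here (version 1.42.0). Other alternatives were limma-voom (version 3.58.1), other scalings, no filter, the replicate number as a block and leaving out each library. Scaling by mitochondrial tRNAs, and the counts of guides without overlap under other scalings, were added after seeing the data.

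Members and lists were chosen with earlier results of these data known. Guides named are the 6 highest, the 3 lowest tested, the 4 largest changes each way, those at an unadjusted p below 0.05 and the copies at positions with several, with others given as ranges.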

Additional observations from a re-analysis of the deposited data

How the results depend on the processing

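The count of Psi18S guides past the threshold was 0 as reported and 1 with total counts only (Psi18S-1854b, edgeR adjusted p = 0.0967, range over its 15 alternatives 0.0967 to 0.516). Leaving out 1 library gave 0 to 2, with 2 only without mutant replicate 3 (Psi18S-1377b and Psi18S-1377e). That setting also raised the calls over all transcripts tested to 47, against 5 as reported, and without wild-type replicate 1, 2 or 3 there were 0. The count of positions past the threshold was 1 with DESeq2 and 1 with total counts only (position 1854 in both), and 0 to 2 on leaving out 1 library, with 2 only without mutant replicate 3 (positions 1854 and 1086, the second named after its values were seen).

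The median log2 fold change of the tested guides, -0.16 as reported, was -0.33 with total counts only, -0.064 with TMM factors without nuclear tRNAs, 5S and 5.8S rRNAs, -0.036 with TMM factors from snoRNAs, and -0.41 with TMM factors from mitochondrial tRNAs. The median over all transcripts tested was -0.22, 0.04, 0.07 and -0.29 in the same order. On leaving out 1 library the median ran from -0.23 to -0.13. The ratio of the Psi18S share, 0.852 of all counts, was 1.03 of snoRNA counts. Between 0 and 8 guides changed sign per setting, none of them with a 95% interval that excluded 0 as reported.

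Calls over all transcripts tested, 5 as reported, were 30 with DESeq2, 0 with limma-voom, 10 with DESeq2 size factors, 16 with total counts only, 11 without nuclear tRNAs, 5S and 5.8S rRNAs in the TMM factors, 10 with snoRNA factors, 16 without the filter and 9 with mitochondrial tRNA factors. With the replicate number as a block, 0 guides and 0 positions passed, the median was -0.16 and 14 transcripts were called. The deviations of same-numbered libraries had correlations of -0.02, -0.26 and -0.20 over all transcripts and of -0.07, -0.25 and 0.32 over the 18S guides. So few libraries cannot decide whether those with the same number were prepared together, and the labels do not say. The main fit did not pair them. Standard errors exceeded 0.40 for Psi18S-1854a, Psi18S-640a and Psi18S-640b, which limits what could be detected for them at this depth.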
